A study of Mus musculus with 9 samples.

Results

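The genes described are the interferon-induced proteins with tetratricopeptide repeats (IFITs) and the interferon-induced transmembrane proteins (IFITMs) of the mouse, 7 of the 54532 genes measured. They were taken by symbol and comprise 4 IFIT genes (Ifit1, Ifit2, Ifit3 and Ifit3b) and 3 IFITM genes (Ifitm1, Ifitm2 and Ifitm3). Their mRNA was measured by RNA sequencing in 9 libraries of wild-type HT22 cells, an immortalized line of mouse hippocampal neurons. The 3 control libraries came from untreated cells. The 3 OGP libraries came from cells deprived of oxygen and glucose (OGD) for 2 h and then reoxygenated for 24 h with phosphate-buffered saline, PBS. The 3 OGE libraries came from cells given the same OGD and the same 24 h, but with hiPS-MSC-EVs in place of PBS. These are extracellular vesicles released by mesenchymal stem cells that had been made from human induced pluripotent stem cells. For the time after OGD, the paper's methods list media with serum, without serum or with vesicles. They do not say which one the sequenced cells had, so OGD and a change of serum cannot be told apart in OGP against control. In OGE against control, OGD, vesicles and a change of serum cannot be told apart. The methods also do not say whether OGE and OGP cells had the same serum, so vesicles and serum cannot be told apart between them. All 9 libraries are of a single cell line, and no source used here says that the libraries of a group came from separate cultures, so p-values cover the spread between the libraries, which may be technical.

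IFIT and IFITM genes are induced by type I interferons, the secreted proteins with which cells answer viral nucleic acid. Interferon binds the receptor pair IFNAR1 and IFNAR2, and the kinases JAK1 and TYK2 activate the complex ISGF3, which holds STAT2 and IRF9 and binds interferon-stimulated response elements (ISREs) in promoters. IFIT proteins act in the cytosol, where IFIT1 binds RNA whose cap lacks ribose methylation and blocks its translation. IFITM proteins sit in the plasma and endosomal membranes and hinder the fusion of enveloped viruses, and many cells express IFITM3 without added interferon.

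The FPKM used here (reads scaled to exon length and library size) are per length, so that genes can be compared within a library. They could be turned back into whole reads, of which 15026700 to 19476806 per library lay in genes. The libraries of a group differed by more than the sampling of reads. Control replicate 1 correlated least with its group (r = 0.969 and 0.974 over genes), and OGE replicate 3 correlated with the other OGE libraries at 0.983 and 0.979. Leaving out both libraries changed no call of a member. Of 13 neuron markers, 2 had a mean of at least 0.5 FPKM (Map2 and Tubb3), and Rbfox3, Snap25 and Dcx were at or near 0. Of the microglia markers, 2 of 13 reached that level (Tmem119 and Trem2), and Itgam, C1qa, C1qb, Tyrobp and Fcrls had no read in any library. So did 2 of 7 astrocyte markers (Slc1a3 and Gja1) and 1 of 7 endothelium markers (Flt1) reach it. Changes were tested with limma on log2(FPKM + 0.5), a scale that understates the change of low genes, over the 13245 genes whose mean level reached 0.5 FPKM. A gene was called when its p, adjusted over all these genes, was at most 0.05 and its fold at least 1.5. The 3 comparisons share libraries and are not independent of each other.

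In OGE cells all 4 IFIT genes were called lower than in both other groups, and none of them passed the threshold in OGP against control. The fall was smallest for Ifit2, whose OGE mean was 45.5% of the OGP mean and 54.3% of the control mean. The IFITM genes did not follow: Ifitm1 rose in both OGD groups, Ifitm2 was not called in any comparison, and Ifitm3 was called lower in OGE against control but in neither other comparison. In OGE against OGP, 0 of the 7 genes were called higher and 4 lower, where 3.39% and 4.73% of all genes tested were called in these directions. In OGE against control, 1 was called higher and 5 lower, beside 5.14% and 6.33% of all genes. In OGP against control, 1 was called higher and 0 lower, beside 6.38% and 5.74%. The median log2 fold change of the 7 genes was -1.11, -0.85 and 0.17 in these comparisons, beside 0.00, -0.00 and 0.01 over all genes tested. Since the members were chosen with earlier results of these data known, their counts and medians are not independent evidence of a direction. Groups without overlap were common among all genes. In OGE against OGP the libraries of 5 members lay wholly lower and of 0 wholly higher, beside 22.0% and 23.3% of all genes tested. In OGE against control 6 lay lower and 1 higher, beside 19.6% and 18.6%. In OGP against control 2 lay lower and 4 higher, beside 22.6% and 20.3%. In these bulk samples, fewer cells that express a gene and less of its RNA per cell cannot be told apart.

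**Figure D1:**
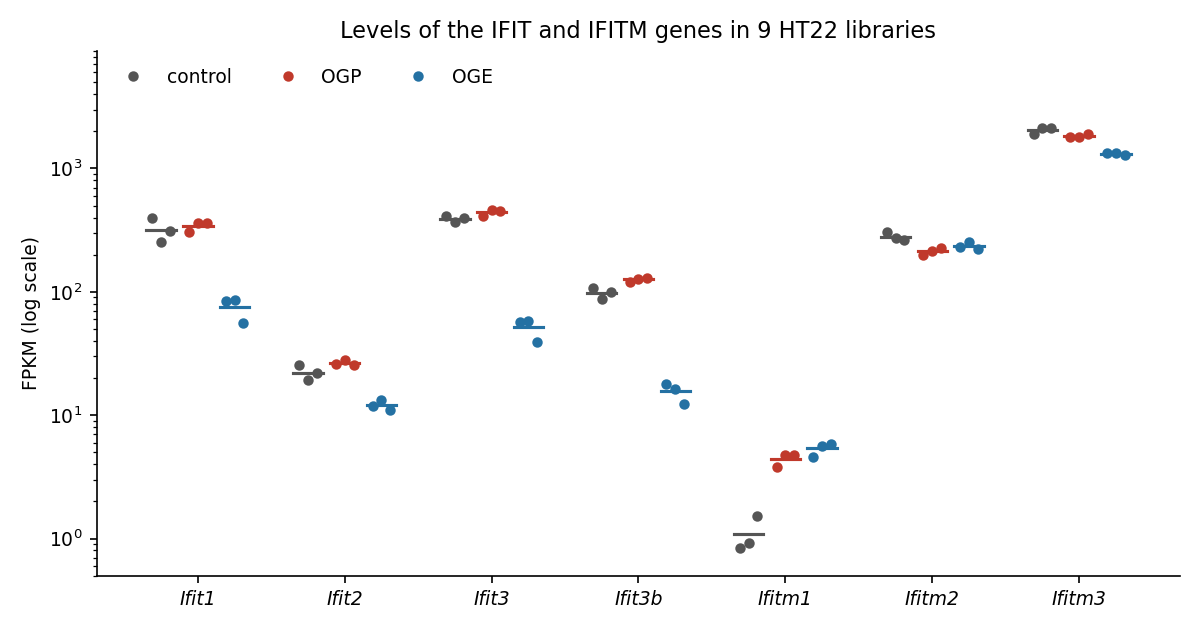
FPKM of the 7 genes (log axis) in each of the 9 libraries, with a point per library, a bar at the mean of the 3 libraries of a group and the groups in 3 colours. The OGE points of Ifit1, Ifit2, Ifit3 and Ifit3b all lie below the control and OGP points, the OGE points of Ifitm2 overlap the OGP points at their lower end, and the control points of Ifitm1 lie below both OGD groups.

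The promoter windows of the members are shown first, since ISREs are the known sites through which interferon acts on both families. RefSeq start sites (GRCm38.p6, windows from 250 bases before to 50 bases after a start) were found for all 7 genes, with 2 windows for Ifit2 and 1 for each of the others. They were searched on both strands for the core of the ISRE, GAAANNGAAA, where N is any base, and for the gamma-activated site TTCNNNGAA. The ISRE core was found for 5 of the 7 genes and in 3.44% of all 32851 windows of this length. It occurred at least 2 times in the windows of Ifit1, Ifit3, Ifit3b and Ifitm3, which 0.225% of all windows did. The sequences below run 5′ to 3′ on the strand of the gene, with matches to the ISRE core in capitals. The Ifit1 stretch is all of the sequence between Ifit1 and Ifit1bl2 (chr19:34640744-34640870, plus strand), genes that are transcribed away from each other and so share both matches. The Ifit3 stretch (chr19:34583363-34583472, plus strand) was identical to that of Ifit3b (chr19:34607759-34607868, plus strand) at 110 of 110 bases, so that it is printed once. The Ifitm2 stretch ends at the base before its first exon (chr7:140955988-140956097, minus strand). The Ifitm3 matches lie inside its first exon (chr7:141010716-141010742, minus strand).
Ifit1: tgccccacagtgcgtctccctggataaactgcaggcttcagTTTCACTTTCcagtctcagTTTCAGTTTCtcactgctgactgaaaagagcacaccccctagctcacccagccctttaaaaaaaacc
Ifit3 and Ifit3b: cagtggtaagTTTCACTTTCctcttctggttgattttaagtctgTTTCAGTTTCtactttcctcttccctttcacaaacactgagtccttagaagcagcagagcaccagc
Ifitm2: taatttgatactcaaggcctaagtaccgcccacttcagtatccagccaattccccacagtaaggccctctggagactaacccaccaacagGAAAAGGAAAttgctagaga
Ifitm3: GAAAAGGAAActtctgaGAAACCGAAA

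The 3 IFIT promoters held both matches on the strand opposite to the gene, so that GAAA reads there as TTTC. In Ifit1, Ifit3 and Ifit3b the pair had the same letters, TTTCACTTTC and then TTTCAGTTTC. No window of Ifit2 or Ifitm1 held these letters, which says only that they are not in these windows. The window of Ifitm1 starts from a RefSeq start 855 bases from the gene start of the files. The gamma-activated site was found for Ifit2, 241 to 233 bases before a start, and for Ifitm3, where it overlaps the second ISRE match. It occurred in 8.30% of all windows.

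Ifit3, whose human counterpart binds and stabilizes IFIT1, fell in OGE to a similar extent as Ifit3b. It measured 408, 366 and 399 FPKM in the control libraries, 409, 457 and 454 in the OGP libraries, and 57.3, 58.1 and 39.4 in the OGE libraries. The highest OGE library was thus far below the lowest of the other 6, and control and OGP libraries differed by little. The mean of 51.6 ± 10.6 FPKM in OGE (SD, n = 3) was 11.7% of the OGP mean of 440.1 ± 27.0 and 13.2% of the control mean of 391 ± 22.1. The log2 fold change was -3.10 in OGE against OGP (SE 0.143, limma adjusted p = 3.25e-06) and -2.93 in OGE against control (adjusted p = 2.70e-06). In OGP against control it was 0.17 (95% interval -0.15 to 0.49, limma adjusted p = 0.406). By mean level Ifit3 ranked 88 of 13245 genes in control, 85 in OGP and 1015 in OGE.

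Ifit3b, a near copy of Ifit3 on the same chromosome, changed alike. It measured 108, 87.0 and 99.5 FPKM in control, 121, 128 and 130.3 in OGP, and 18.0, 16.4 and 12.3 in OGE. All OGP libraries lay above all control libraries and all OGE libraries below both. In OGE the log2 fold change was -3.0 against OGP (SE 0.135, limma adjusted p = 2.76e-06) and -2.63 against control (adjusted p = 3.26e-06). The difference of OGP from control, 0.37 on the log2 scale, did not pass (limma adjusted p = 0.0670). The groups did not overlap, as was so in this direction for 20.3% of all genes tested. The 95% intervals of the OGE-against-OGP change of Ifit3b (-3.30 to -2.69) and Ifit3 overlap, and after quantile normalization their order turned (-2.92 for Ifit3b and -2.88 for Ifit3). Ifit3 and Ifit3b share sequence: 296 of the 1596 windows of 150 bases in the Ifit3 transcript, 18.5%, also stand in that of Ifit3b. How the authors' counting placed such reads was not stated. The level of Ifit3 was 4.0 ± 0.214 times that of Ifit3b in control (SD, n = 3), 3.48 ± 0.0963 in OGP and 3.31 ± 0.201 in OGE.

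Ifit1, which binds RNA with an unmethylated cap, was the second most abundant IFIT in control and OGP and the first in OGE. It measured 395, 254 and 309.9 FPKM in control, 307, 360.0 and 362 in OGP, and 83.9, 86.4 and 55.5 in OGE. Control and OGP libraries overlapped, with the widest spread among the control libraries. The OGE mean of 75.3 ± 17.2 FPKM was 21.9% of the OGP mean of 343 ± 31.1. It fell in OGE, with a log2 fold change of -2.20 against OGP (SE 0.199, limma adjusted p = 9.57e-05) and -2.08 against control (adjusted p = 1.07e-04). In OGP against control it was 0.12 (95% interval -0.33 to 0.57, limma adjusted p = 0.676), and it was -0.03 without control replicate 2. Of its 2507 windows of 150 bases, 31 also stand in the transcript of Ifit1bl2.

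Ifit2, an RNA-binding member that can pair with other IFITs, was the lowest of the 4 and fell the least. It measured 25.3, 19.3 and 21.9 FPKM in control, 26.2, 27.8 and 25.4 in OGP, and 11.8, 13.2 and 11.1 in OGE. Again the OGE libraries lay below the other 6, while OGP and control were separated by only the gap from 25.3 to 25.4. The OGE mean of 12 ± 1.10 was 45.5% of the OGP mean and 54.3% of the control mean. The log2 fold change was -1.11 in OGE against OGP (SE 0.108, limma adjusted p = 1.53e-04), -0.85 in OGE against control (adjusted p = 5.43e-04) and 0.26 in OGP against control (adjusted p = 0.104). The 95% intervals of the OGE-against-OGP change of Ifit2 (-1.35 to -0.86) and Ifit3 (-3.42 to -2.78) do not overlap.

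The members fell by different factors, and the make-up of the family's mRNA differed in OGE. The summed level of the 4 genes was 831 ± 105 FPKM in control (SD, n = 3), 936 ± 63.0 in OGP and 155 ± 31.4 in OGE. Ifit3 made up 47.4 ± 3.47% of this sum in control libraries, 47.0 ± 0.327% in OGP and 33.4 ± 0.108% in OGE. The share of Ifit1 was 38.1 ± 3.69%, 36.6 ± 0.904% and 48.5 ± 1.43%. The share of Ifit2 was 2.67 ± 0.0342% in control, 2.83 ± 0.209% in OGP and 7.95 ± 1.25% in OGE libraries. The ratio of Ifit3 to Ifit1 lay between 0.673 and 0.710 in the OGE libraries and between 1.03 and 1.45 in the other 6.

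OGE replicate 3 held the lowest level of all 4 IFIT genes. Without it and control replicate 1, the OGE-against-OGP change was -2.92 for Ifit3, -2.84 for Ifit3b, -2.0 for Ifit1 and -1.05 for Ifit2, each still called by limma (the largest adjusted p was 1.48e-04). Within groups the IFIT genes varied together. Over the 9 libraries the pairs of IFIT genes correlated at r = 0.97 to 1.00, with the 3 OGE libraries far from the rest, and after the group means were removed at 0.60 to 0.94. After the same step Ifitm2 correlated with the 4 IFIT genes at 0.53 to 0.74, so that varying together within groups was not particular to the IFIT family. These correlations are descriptions over libraries that share their depth scaling.

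**Figure D2:**
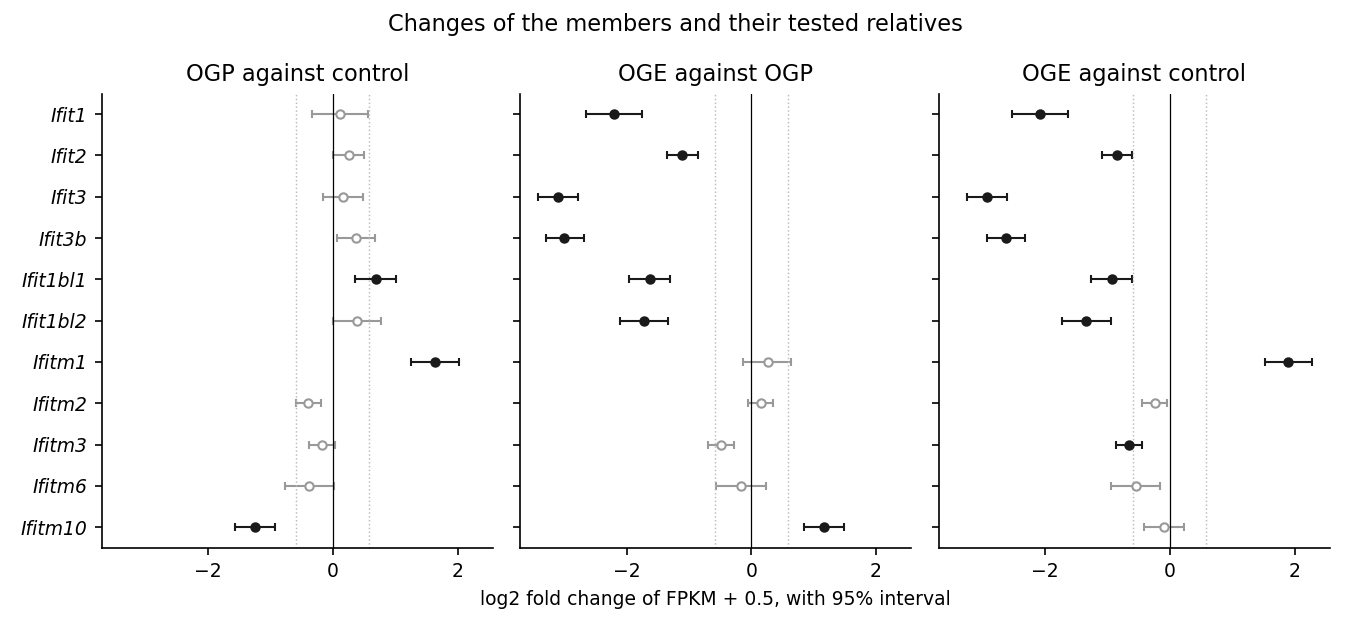
Log2 fold change of FPKM + 0.5 (horizontal axis) with its 95% interval for the 7 members and their 4 relatives that could be tested, in 3 comparisons. Filled black points were called, open grey points were not, and dotted lines mark a fold of 1.5. The 6 genes of the IFIT cluster lie left of the dotted line in both OGE comparisons, and Ifitm1 lies right of it in both comparisons with control.

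Ifitm3, the family member best known for blocking influenza virus in endosomes, was the most abundant gene of the 7 and among the most abundant of all, with rank 6 of 13245 in control and rank 12 in both OGP and OGE. It measured 1914, 2142 and 2146 FPKM in control, 1798, 1791 and 1913 in OGP, and 1336, 1325 and 1284 in OGE. No 2 groups overlapped, though the gap between control and OGP was 1914 against 1913. The log2 fold change was -0.65 in OGE against control (SE 0.0930, limma adjusted p = 0.00108), which was called. In OGE against OGP it was -0.48 (95% interval -0.69 to -0.27, adjusted p = 0.00732), under the fold of 1.5. After quantile normalization, which gives the highest genes of every library the same values, this difference was -0.05 (adjusted p = 0.695) and that of OGP against control moved from -0.17 to -0.68 (adjusted p = 6.63e-04), so that the split of the difference between the 2 steps depends on the scaling.

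Ifitm2, a close paralog of Ifitm3 in the endosomal membrane, measured 303, 271 and 263 FPKM in control, 199.9, 213 and 225 in OGP, and 231, 253 and 224 in OGE. OGP and OGE overlapped, and both lay below control. The log2 fold change was -0.39 in OGP against control (limma adjusted p = 0.0113, under the fold of 1.5), 0.15 in OGE against OGP (95% interval -0.05 to 0.35, adjusted p = 0.275) and -0.24 in OGE against control (adjusted p = 0.0843). Of its 506 windows of 150 bases, 119 also stand in Gm45717, an annotated transcript on the same strand that overlaps Ifitm2 and is listed at 0 FPKM in every library. How such reads were counted was not stated, so the level of Ifitm2 beside other genes, and its ratio to them, is uncertain. No window of 150 bases was shared between Ifitm2 and Ifitm3.

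Ifitm1, which sits mainly at the cell surface, went the other way at a level far below its relatives. It measured 0.838, 0.916 and 1.52 FPKM in control, 3.79, 4.74 and 4.72 in OGP, and 4.61, 5.67 and 5.83 in OGE, from 16 to 105 reads per library. Both OGD groups lay above control and overlapped each other. The log2 fold change was 1.64 in OGP against control (SE 0.169, limma adjusted p = 2.12e-04) and 1.90 in OGE against control (adjusted p = 6.88e-05), and 0.26 in OGE against OGP (95% interval -0.13 to 0.64, adjusted p = 0.323). By level it stayed a small part of the family, 0.0463 ± 0.0147% of the summed IFITM level in control and 0.345 ± 0.0471% in OGE.

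The summed IFITM level was 2347 ± 113 FPKM in control, 2051 ± 79.3 in OGP and 1556 ± 36.7 in OGE (SD, n = 3). Ifitm3 was 7.46 ± 0.995 times as abundant as Ifitm2 in control, 8.63 ± 0.322 times in OGP and 5.58 ± 0.293 times in OGE. Among themselves the IFITM genes did not vary as a unit: over the 9 libraries Ifitm1 and Ifitm2 correlated at r = -0.78, Ifitm1 and Ifitm3 at -0.74, and Ifitm2 and Ifitm3 at 0.31. Ifitm3 correlated with the IFIT genes at 0.82 to 0.93, but after the group means were removed at -0.61 to 0.16.

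By mean level in control, the order was Ifitm3 (2067 ± 133), Ifit3 (391 ± 22.1), Ifit1 (319 ± 71.1), Ifitm2 (279 ± 21.0), Ifit3b (98.2 ± 10.5), Ifit2 (22.2 ± 3.03) and Ifitm1 (1.09 ± 0.376 FPKM, SD, n = 3). Ifit3 and Ifit1 overlapped there, as did Ifit1 and Ifitm2. In OGE the order was Ifitm3 (1315 ± 27.2), Ifitm2 (236 ± 14.7), Ifit1 (75.3 ± 17.2), Ifit3 (51.6 ± 10.6), Ifit3b (15.6 ± 2.91), Ifit2 (12 ± 1.10) and Ifitm1 (5.37 ± 0.662). Ifitm2 thus stood above every IFIT gene in OGE, and Ifit3, the second in control, came behind Ifit1. Neighbours that overlapped in OGE were Ifit1 with Ifit3, and Ifit3b with Ifit2.

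Of the 6 relatives outside the chosen set, 4 could be tested. Ifit1bl1 and Ifit1bl2, IFIT1-like genes interleaved with the members, fell in OGE against OGP by 1.63 and 1.72 on the log2 scale (limma adjusted p = 9.20e-05 and 1.80e-04). Ifit1bl1 averaged 0.745 FPKM in control, 1.51 in OGP and 0.149 in OGE, from 4 to 70 reads per library, and was the 1 gene of the cluster called in OGP against control (0.69, adjusted p = 0.00740), which it was not with a pseudocount of 1. Ifit1bl2 averaged 5.65, 7.46 and 1.91 FPKM. The OGP mean was 10.1 times the OGE mean for Ifit1bl1 and 3.91 times for Ifit1bl2. Ifitm10, which lies apart from the IFITM cluster, fell in OGP against control (2.27 to 0.661 FPKM, log2 fold change -1.25, adjusted p = 3.49e-04) and rose in OGE against OGP (to 2.10 FPKM, 1.16, adjusted p = 6.05e-04). Ifitm6 was not called in any comparison, Ifitm5 lay under the level tested with 2 to 9 reads per library, and Ifitm7 had no read.

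The 4 IFIT genes lie within 99316 bases on chromosome 19 (mm10 coordinates of the files: Ifit2 at 34550694 to 34576419, Ifit3 at 34583531 to 34588731, Ifit3b at 34607970 to 34613401 and Ifit1 at 34640871 to 34650009, all on the plus strand). Ifit1bl1 and Ifit1bl2 lie between them on the minus strand, the latter 127 bases from Ifit1. All 6 genes of this stretch were called lower in OGE against OGP. Of the 5 nearest tested genes on each side, taken by position, 2 were called lower and 1 higher. The nearest on the left, the lysosomal lipase gene Lipa at 23.2 kb, changed by -0.10 on the log2 scale (limma adjusted p = 0.564), and the nearest on the right, the pantothenate kinase gene Pank1 at 161 kb, by -0.24 (adjusted p = 0.136). The 3 that were called were Acta2, smooth muscle actin (-1.62, 295 kb away), Lipn, a lipase gene (-1.05, 466 kb away), and Mir1950 (1.61). Lipn had 6 to 101 reads per library and Mir1950 at most 2. In OGE against control the 6 genes of the stretch were again called lower. Lipa (-0.64, limma adjusted p = 0.00282), Acta2 (-0.70) and Lipn (-2.02) were called lower there too, and no other of these neighbours was called.

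**Figure D3:**
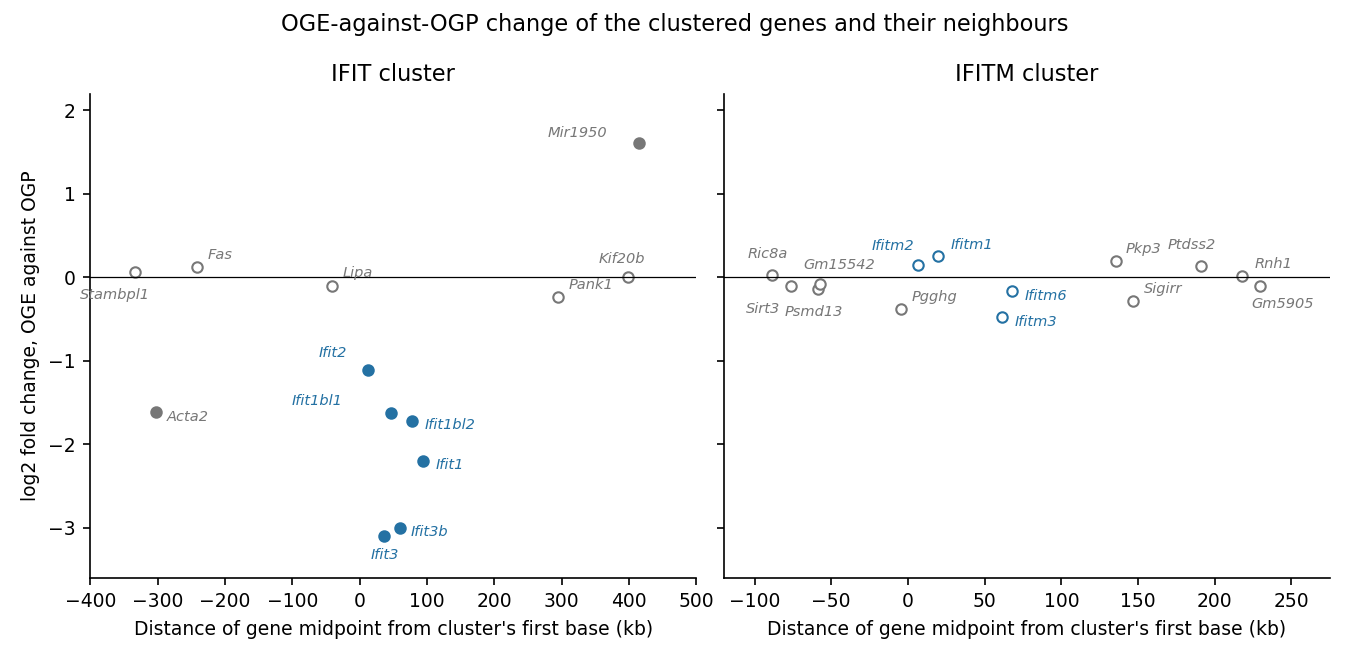
Log2 fold change in OGE against OGP (vertical axis) against the distance of a gene's midpoint from the first base of its cluster in kb, for genes inside the IFIT and IFITM clusters (blue) and the nearest tested neighbours within the range drawn (grey). Filled points were called. The 6 genes of the IFIT cluster lie between -3.10 and -1.11 and the neighbours of both clusters mostly near 0.

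The IFITM cluster covers 68967 bases on chromosome 7 from Ifitm5 to Ifitm6, with Ifitm2 at 140954837 to 140955987 and Ifitm3 at 141009586 to 141010770 on the minus strand and Ifitm1 at 140967221 to 140969825 on the plus strand. No gene tested in this stretch was called in OGE against OGP, and neither was any of the 5 nearest tested genes on each side. The 7 members have the same start, end and exonic length in the GENCODE M21 annotation, and of these only Ifitm2 overlaps another annotated gene. Strand was not stated to be kept in the libraries.

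The interferon pathway upstream of the members was described from lists of its genes. Of 21 interferon genes, 2 reached the level tested, and both fell in OGE. Ifnb1, interferon beta, averaged 3.66 ± 0.404 FPKM in control, 6.05 ± 1.44 in OGP and 1.56 ± 0.158 in OGE. It rose in OGP against control by 0.63 on the log2 scale (limma adjusted p = 0.0168) and fell in OGE against OGP by 1.65 (adjusted p = 1.51e-04) and in OGE against control by 1.01 (adjusted p = 0.00190). Its reads numbered 16 to 90 per library. Ifna4, an interferon alpha gene, averaged 2.92 FPKM in control, 3.61 in OGP and 1.22 in OGE, with a log2 fold change of -1.35 in OGE against OGP (adjusted p = 0.0105). Below the level tested, Ifna1, Ifna2 and Ifna5 had 20, 52 and 22 reads over the 9 libraries and none in an OGE library. The interferon alpha genes are near-identical to each other, so that their reads are uncertain.

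The receptor genes did not pass in any comparison. Ifnar1 averaged 20.4, 17.8 and 20.8 FPKM in control, OGP and OGE, and Ifnar2 averaged 19.1, 14.2 and 15.3. Jak1 and Tyk2 were not called either. Of 13 genes of receptors, kinases and transcription factors, 0 were called higher and 3 lower in OGE against OGP (median log2 fold change -0.26, beside 0.00 over all genes tested). These 3 were Irf7, which amplifies the interferon alpha response (86.6 to 25.4 FPKM, -1.75, limma adjusted p = 1.25e-05), Stat2 (34.9 to 17.8 FPKM, -0.95, adjusted p = 2.59e-04) and Irf9 (35.5 to 22.5 FPKM, -0.65, adjusted p = 1.67e-04). Stat2 and Irf9, which encode subunits of ISGF3, are themselves induced by interferon. The call of Irf9 was lost after quantile normalization (-0.58). In OGE against control 4 were called lower, Irf7, Stat2, Irf1 and Irf2, and in OGP against control 1, Irf2 (-0.63, adjusted p = 0.00445), a call that was lost without control replicate 1.

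Most other interferon-stimulated genes on the list fell in OGE too. Of 45 tested, 0 were called higher and 43 lower in OGE against OGP, with a median log2 fold change of -1.37, and 0 higher and 41 lower in OGE against control, with a median of -0.98 (all genes: -0.00). Since the list was drawn up with results of these libraries known, its counts are not independent evidence of its direction. The antiviral GTPase gene Mx1 had the same log2 fold change as Ifit3 (18.7 to 1.76 FPKM, -3.10, limma adjusted p = 9.70e-06). Its OGP mean was 10.6 times its OGE mean, beside 8.52 times for Ifit3. Next by log2 fold change were the chemokine gene Cxcl10 (160.3 to 22.9 FPKM, -2.80, adjusted p = 5.45e-06) and the nucleotide kinase gene Cmpk2 (30.0 to 5.43 FPKM, -2.37, adjusted p = 1.05e-06). The double-stranded RNA sensor gene Oas3 fell by 1.44 and Rsad2, which encodes viperin, fell by 1.97. The 2 that were not called, named after their values were seen, were Ifi27 (-0.04) and Lgals3bp (-0.58). Trex1 had no read in any library.

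**Figure D4:**
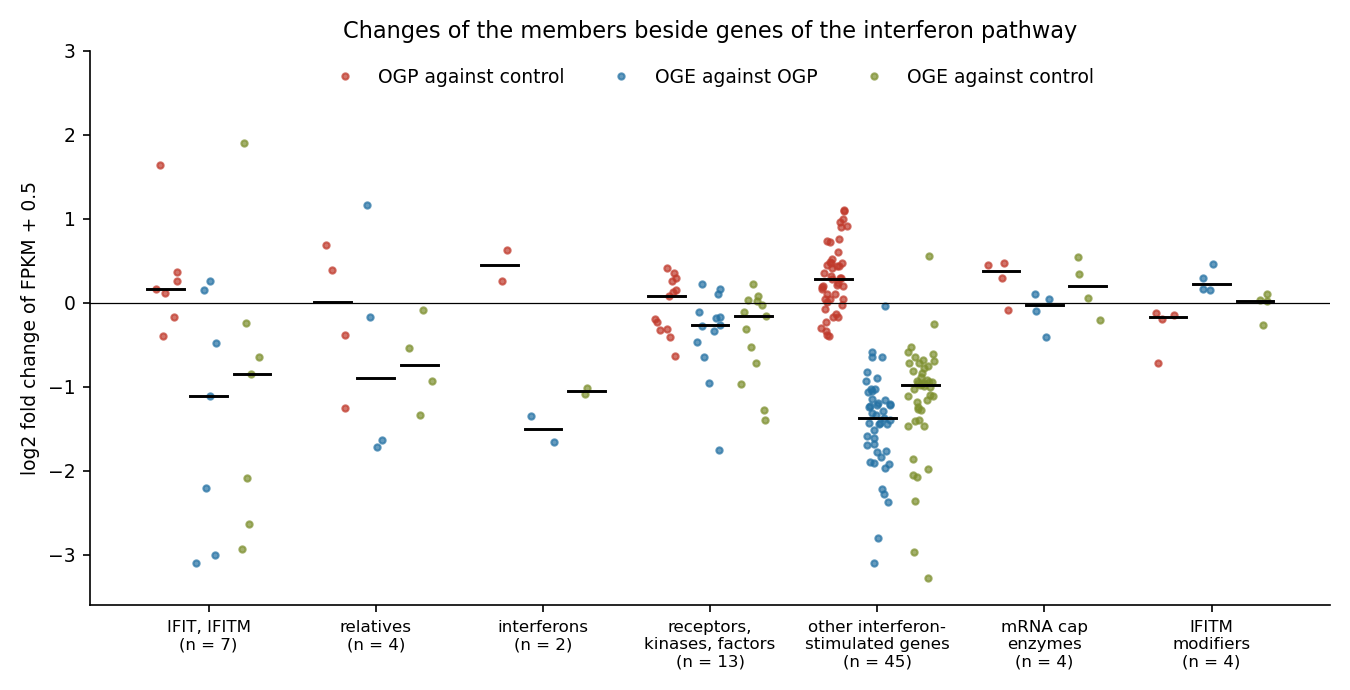
Log2 fold change of FPKM + 0.5 (vertical axis) of each tested gene, by gene list (horizontal axis, with the number of genes) and comparison (colour), with a black bar at the median. The other interferon-stimulated genes have medians of 0.28, -1.37 and -0.98 in the 3 comparisons, and the 4 cap enzymes range from -0.41 to 0.55 and the 4 IFITM modifiers from -0.72 to 0.46.

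In OGP against control, of the 45 genes, 10 were called higher and 0 lower, with a median of 0.28 (all genes: 0.01). Among the 10 were Ube2l6 (94.3 to 184 FPKM, 0.96, limma adjusted p = 3.01e-04) and Uba7 (5.39 to 11.3 FPKM, 1.00, adjusted p = 4.07e-04), which encode enzymes that attach the ubiquitin-like protein ISG15, the exonuclease gene Isg20 (22.7 to 48.5 FPKM, 1.09, adjusted p = 2.46e-04), and the GTPase genes Gbp3 (0.76, adjusted p = 0.00117) and Ifi47 (21.4 to 46.4 FPKM, 1.10, adjusted p = 1.12e-04). None of the 4 IFIT members was among the genes called. Mx1 (-0.17), Oas3 (-0.03) and Cxcl10 (-0.17) had small differences there, none of them called.

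The summed level of the microglia markers, most of it Tmem119, moved in the same direction as the IFIT genes, at 13.3 to 18.7 FPKM in control, 16.7 to 19.1 in OGP and 9.61 to 10.7 in OGE. The other microglia marker tested, Trem2, went the other way in OGE against OGP, where it was called higher (0.126 to 0.479 FPKM, 0.63, limma adjusted p = 0.0310), and it averaged 1.22 FPKM in control. The defining markers Itgam, C1qa, C1qb and Tyrobp had no read in any of these libraries. Astrocyte markers summed to 38.2 to 44.5 FPKM in control, 18.2 to 19.5 in OGP and 29.5 to 38.4 in OGE. Mitochondrially encoded genes took 1.10 to 2.31% of the reads in control, 2.45 to 3.25% in OGP and 2.03 to 2.90% in OGE, and OGE overlapped OGP. The part of these measures in the changes of the members was not tested.

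Genes that act on the targets or the proteins of the families gave few calls, as is usual for lists of 4 genes. Of all genes tested, 3.39% to 6.38% were called per direction and comparison. The enzymes that build the mRNA cap read by IFIT1 (Rngtt, Rnmt, Cmtr1 and Cmtr2) gave no call in any of the 3 comparisons. The gene with the largest difference among them was Cmtr2, a cap ribose methyltransferase, with 0.55 in OGE against control (limma adjusted p = 7.32e-04, under the fold of 1.5). Of 4 genes whose products modify IFITM3 or act on its turnover (Zdhhc20, Nedd4, Setd7 and Vcp), only Setd7, a lysine methyltransferase, was called, lower in OGP against control (18.6 to 11.1 FPKM, -0.72, adjusted p = 0.00139).

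Among 10434 genes that averaged at least 1 FPKM, those most like the mean profile of the IFIT members over the 9 libraries included Zbp1 and Iigp1 (Pearson's r = 0.996 each), Trim21 and Ifih1 (0.994), Oasl2 (0.993), Samhd1 (0.992) and Ifi44 (0.991). The genes most like the mean profile of the IFITM members, Rassf3 and Sbds, reached 0.95. The IFITM members' mean joins profiles that run in opposite directions. Taken singly, a step added after the values were seen, Ifitm1 was most like Ggcx (r = 0.994), Ifitm2 most like Prkacb (0.98) and Ifitm3 most like Leprot (0.991) and Tap1 (0.985). These correlations rest on 3 groups of 3 libraries and are given as descriptions.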

How the data were processed

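RNA of 9 HT22 libraries (3 groups of 3, named by the treatment in the labels) was sequenced in paired ends of 150 bases. The authors aligned reads to mm10 with HISAT2 2.0.5, counted them per gene with featureCounts and deposited FPKM. No source used here names the tool that made the FPKM. Their own lists of changed genes were not used. FPKM times gene length gave whole reads to within 0.1 in every library. limma 3.58.1 (R 4.3.3) was run on the 13245 genes whose mean reached 0.5 FPKM (trended prior variance, log2(FPKM + 0.5), all 9 libraries in 1 model, 2-sided, Benjamini-Hochberg adjustment over all genes tested). The fit was tested on simulated data. Members, gene lists and tests were chosen with earlier results of these data known. Besides the members, genes of the relative, interferon, signalling, cap and IFITM-modifier lists could be named, the 6 of the other interferon-stimulated genes with the smallest p per comparison, and the 8 most like each family's mean. One gene of the signalling list is not reported here and was left out of its counts. Neighbours were taken by position. Alternatives were other pseudocounts, filters, scalings, fold thresholds, a replicate block, voom with TMM scaling on the recovered reads, and leaving out libraries. Promoters are RefSeq's (GRCm38.p6), and shared windows were counted over GENCODE M21 transcripts.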

Additional observations from a re-analysis of the deposited data

How the results depend on the processing

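Counts of called members and the changes of the members were recomputed under 22 alternatives. So were the called changes of relatives, signalling genes, cap enzymes, IFITM modifiers and the other interferon-stimulated genes with the smallest p. The interferon genes, Ifnb1 and Ifna4 among them, and the neighbours outside the clusters were not rerun. In OGE against OGP and in OGE against control all 4 IFIT members were called lower under each of them, except that Ifit2 was not called in OGE against control at a fold of at least 2 (-0.85). The IFITM members called lower in OGP against control numbered 1, not 0, after quantile normalization and without a fold threshold, and in OGE against OGP 1, not 0, without a fold threshold. In OGE against control they numbered 0, not 1, without the filter on low values (Ifitm3, adjusted p = 0.164) and at a fold of at least 2. Without the filter, 27813 genes were tested and the prior variance was fitted over all of them. The log2 fold change of Ifitm3 stayed at -0.65, and which of these 2 moved its adjusted p was not tested. The change of Ifit1 in OGP against control reversed to -0.06 after quantile normalization and to -0.03 without control replicate 2, in a range of -0.03 to 0.29 over the fits that leave out 1 library. With the replicate number as a block, 4 IFIT members were again called lower in OGE against OGP, and no call of a member changed. Deviations of same-numbered libraries from their group means correlated at -0.18 to 0.32, over 0.1 in 2 of 9 pairs. With 3 libraries per group these values cannot decide whether the numbers pair the samples. The standard error of the log2 changes was largest for Ifit1 (0.199) and next for Ifitm1 (0.169), which had 16 to 105 reads per library. The placing of reads shared by Ifit3 and Ifit3b was not tested.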
